A study of Mus musculus with 9 samples.

Results

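The CCN genes Ctgf, Cyr61, Nov, Wisp1 and Wisp2, and the Yap target genes Ankrd1, Amotl2 and Lats2, were examined in marrow-derived mouse mesenchymal stem cells. They were found by their names in the deposited count table, which keeps the older CCN names, and all 8 are among its 23358 entries. All 8 also passed the filter on low counts, which left 13240 genes tested. Mesenchymal stem cells are the multipotent stromal cells of marrow that can form bone, cartilage and fat. The cells, of C57BL/6 background and at passages 4 to 10, were kept in osteogenic medium and lysed for RNA on day 4 after transfection. The siBcat group received siRNA against beta-catenin, the GSK126 group a non-targeting siRNA plus GSK126 at 5 µM, which inhibits the histone methyltransferase Ezh2, and the siCTL group the non-targeting siRNA alone. The treatment label of siBcat also lists 5 µM GSK126, whereas its titles say that the inhibitor was absent, and the grouping used here is that of the titles. Each group had 3 biological replicates; the labels do not say which cultures or animals they came from, so p values measure the spread between these libraries.

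Summed counts were 42324200 to 55898774 per library, and every count was even. The siRNA target, Ctnnb1, was at 19.1 to 19.3 CPM (counts scaled to the same library total, after TMM scaling) in siBcat, against 905.9 to 949.7 CPM in GSK126 and 854.4 to 878.9 CPM in siCTL. Ezh2 RNA averaged 27.5 CPM in siBcat and 27.9 CPM in GSK126, against 23.7 CPM in siCTL, which does not measure the inhibitor's action on the enzyme. The 10 stromal markers summed to 23290 to 25380 CPM in siBcat, 33410 to 36300 CPM in GSK126 and 26020 to 30920 CPM in siCTL, mostly Col1a2, Col1a1 and Cxcl12, while Eng was at 6.77 to 9.29 CPM and Lepr at 0.441 to 1.06 CPM over the 9 libraries and Thy1 had a count of 0 in all of them. With siBcat 2 of the 9 that were tested rose (Cd44 by 0.85 and Ly6a by 0.78), beside 17.7% of all genes tested. In the same comparison 3 fell (Cxcl12 at -0.65, Pdgfra at -0.29 and Col1a2 at -0.23), beside 17.5% of all genes. With GSK126 2 rose (Cxcl12 by 1.09 and Ly6a by 0.38) and 2 fell (Pdgfra at -0.59 and Pdgfrb at -0.36), beside 14.3% and 10.7% of all genes. The part of these shifts in the results was not tested. Among markers of other cells, Ptprc, Epcam, Krt14, Myog and Myh6 had no count in any library. The 6 endothelial markers summed to 1.66 to 2.23 CPM in siBcat, 1.47 to 2.26 CPM in GSK126 and 1.45 to 2.03 CPM in siCTL. Of the 2 tested, Kdr rose and Vwf fell with siBcat, beside 17.7% and 17.5% of all genes. The 8 macrophage and haematopoietic markers in the table summed to 12.4 to 13.2 CPM in siBcat, 10.0 to 12.5 CPM in GSK126 and 12.5 to 15.2 CPM in siCTL. Most of that was Cd14, at 6.47 to 11.45 CPM over the 9 libraries. Of the 6 tested, 2 rose (Lyz2 and Cd74) and 2 fell (Mrc1 and Cd68) with siBcat, beside 17.7% and 17.5% of all genes. With GSK126 0 rose and 1 fell (Cd14), beside 14.3% and 10.7%. The 11 muscle markers, relevant because Ankrd1 is also a muscle gene, summed to 55.9 to 60.3 CPM in siBcat, 47.3 to 56.4 CPM in GSK126 and 46.2 to 51.4 CPM in siCTL, most of it Des. Among them Acta1 rose in both treatments, at 10.2 to 10.7 CPM in siBcat and 7.17 to 7.84 CPM in GSK126, against 1.67 to 1.94 CPM in siCTL, and its part in the results was not tested. GSK126 replicate 3 read lower in the longest members. Wisp1 differed by -23.8%, Lats2 by -16.0% and Amotl2 by -7.1% from the mean of the other 2 libraries there. Nov also read lower, at -6.9%, though its coding length of 2365 bases is close to the 2402 of Ctgf, at 13.9%. Cyr61, Wisp2 and Ankrd1 differed by 9.9 to 12.9%.

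CCN proteins are secreted, modular proteins of the extracellular matrix that bind integrins, growth factors and Lrp receptors, and they act in bone, cartilage, wound repair and fibrosis. Ctgf and Cyr61 are the best known targets of Yap and Taz, coactivators that enter the nucleus when the Hippo kinases are inactive, as on stiff or sparse substrates, and bind DNA through the Tead factors. Lats2 is a kinase that phosphorylates Yap, Amotl2 a junction protein that holds Yap outside the nucleus, and both are themselves Yap targets, so they form negative feedback. Wisp1 and Wisp2 were named as Wnt1-inducible genes, and beta-catenin is the coactivator that carries Wnt signals to the TCF/LEF factors.

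The RefSeq promoter table (GRCm38.p6) held the start used by the count table for 4 of the 8 genes, Cyr61, Ankrd1, Amotl2 and Lats2. Their sequences are shown because Tead factors bind the letters CATTCC, read as GGAATG when found on the other strand, and all 4 windows, from 250 bases before to 50 bases after the gene start, held them. Of all 32851 promoter windows in that table, 14.7% did. The letters CTTTGA, read as TCAAAG when found on the other strand and the core of TCF/LEF sites, were in 1 of the 4 windows, that of Amotl2, and in 16.0% of all windows. Below, 5′ to 3′ on the strand of the gene, capitals mark either match, and neither overlaps the other; a match of letters is not shown to be a bound site. Cyr61 is given at chr3:145649986-145650235 (minus strand), Ankrd1 at chr19:36119845-36120094 (minus strand) and Amotl2 at chr9:102717554-102717803 (plus strand), each ending at the base before the gene start. For Lats2, whose match lies just past the start, only 30 bases around it are given, chr14:57746102-57746131 (minus strand).
Cyr61: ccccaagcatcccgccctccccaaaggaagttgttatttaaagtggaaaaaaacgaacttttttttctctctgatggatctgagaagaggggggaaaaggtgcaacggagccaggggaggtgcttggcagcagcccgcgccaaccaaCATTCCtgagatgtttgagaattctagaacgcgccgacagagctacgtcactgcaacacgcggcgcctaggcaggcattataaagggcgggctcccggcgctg
Ankrd1: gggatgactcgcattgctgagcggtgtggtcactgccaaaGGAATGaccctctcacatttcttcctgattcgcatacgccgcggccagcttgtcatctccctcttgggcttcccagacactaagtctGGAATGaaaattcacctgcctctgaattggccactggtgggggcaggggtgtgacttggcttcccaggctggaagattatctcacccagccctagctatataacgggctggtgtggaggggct
Amotl2: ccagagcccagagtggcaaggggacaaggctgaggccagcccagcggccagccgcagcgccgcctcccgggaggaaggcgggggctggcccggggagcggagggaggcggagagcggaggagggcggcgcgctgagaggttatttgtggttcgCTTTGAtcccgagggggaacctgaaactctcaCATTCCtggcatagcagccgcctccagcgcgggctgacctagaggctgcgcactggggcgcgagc
Lats2: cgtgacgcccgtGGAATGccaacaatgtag

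Counted from the gene start, where the base before it is -1, the Tead letters began at -103 in Cyr61, at -210 and -123 in Ankrd1, at -65 in Amotl2 and at 5 in Lats2. The TCF/LEF letters of Amotl2 began at -97. Ankrd1 was the only one of the 4 with 2 matches upstream, which 1.0% of all promoters in the table had. Of the 17 further genes of a published Yap signature, 11 had a promoter in the table and 3 of these, Axl, Crim1 and Ptpn14, held the Tead letters. Sequences of Ctgf, Nov, Wisp1 and Wisp2 are not shown here.

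**Figure D1:**
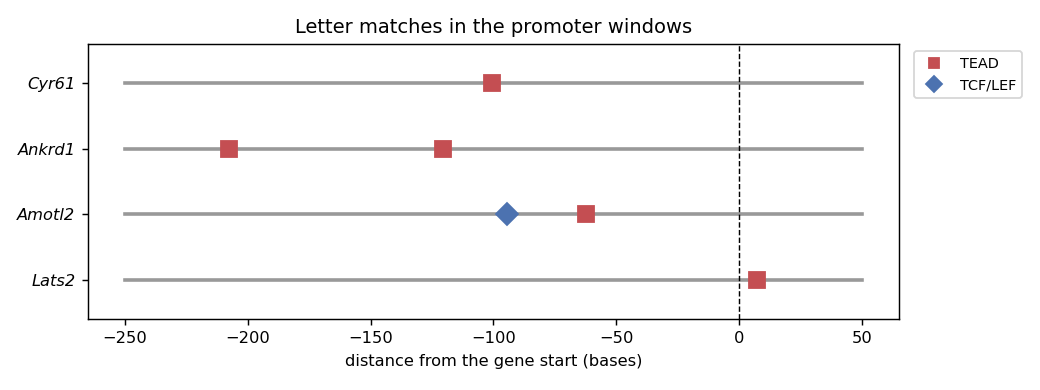
Positions of the Tead letters (red squares) and TCF/LEF letters (blue diamond) in the promoter windows of 4 genes, in bases from the gene start (dashed line). The grey bars span each window; Ankrd1 has 2 Tead matches upstream and Lats2 has 1 just past its start.

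Ctgf (chromosome 10, 24595442 to 24598682, plus strand, mm10) and Cyr61 (chromosome 3, 145646971 to 145649985, minus strand) were the most abundant of the 8 in siCTL per length. Ctgf was at 721.8, 708.2 and 689.8 CPM in siBcat, at 888.6, 927.2 and 1034 CPM under GSK126, and at 730.6, 665.6 and 648.5 CPM in siCTL. The siBcat libraries lay within the siCTL range, and all 3 GSK126 libraries lay above both. Ctgf had no call with siBcat (log2 fold change of 0.05, SE 0.06, adjusted p = 0.562), and with GSK126 it rose by 0.48 (SE 0.06, adjusted p = 0.000167). It was also lower in siBcat than in GSK126, by -0.43 (SE 0.06, adjusted p = 0.000167). In bulk RNA, more cells with a transcript and more of it per cell cannot be told apart, here or below. A noncoding gene on the opposite strand, Gm15270, shares 665 exon bases with Ctgf in GENCODE M21, and reads of the 2 cannot be told apart without strand.

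Cyr61 was at 507.6, 524.9 and 496.3 CPM in siBcat, at 550.1, 563.4 and 620.7 CPM under GSK126, and at 459.8, 440.5 and 418.7 CPM in siCTL. The 3 groups did not overlap, and siBcat lay between the other two. Cyr61 rose by 0.40 with GSK126 (SE 0.06, adjusted p = 0.000318) and by 0.21 with siBcat (SE 0.06, adjusted p = 0.0115), and was lower in siBcat than in GSK126 by -0.18 (SE 0.06, adjusted p = 0.0224). The rise with siBcat was past the threshold of 0.05 except without siBcat replicate 2 (0.0546) or siCTL replicate 2 (0.0516), over alternatives from 1.98e-05 to 0.0546. The call between the treatments ended on leaving out siBcat replicate 1 (0.0709) or 3 (0.0982) and with only those 2 groups compared (0.0535), over alternatives from 0.00554 to 0.0982.

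Nov (chromosome 15, 54745928 to 54753761, plus strand), a CCN protein that restrains osteoblast differentiation in mice, went opposite ways in the treatments. It was at 32.0, 31.7 and 33.2 CPM in siBcat, at 203.1, 212.2 and 193.3 CPM under GSK126, and at 110.5, 119.4 and 104.7 CPM in the siCTL libraries. No library of any group overlapped those of another. Nov was 3.45-fold lower with siBcat (a log2 change of -1.79, SE 0.06, adjusted p = 1.4e-09) and 1.82-fold higher with GSK126 (0.86, SE 0.06, adjusted p = 8.16e-07). Compared directly, siBcat stood 6.28-fold below GSK126 (-2.65, SE 0.06, adjusted p = 2.74e-11), and 0.66% of the genes tested differed by more in that comparison.

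Wisp2 (chromosome 2, 163820834 to 163833147, plus strand), which lacks the C-terminal cystine knot domain of the other CCN proteins, was the member with the largest rise. It stood at 525.4, 484.3 and 522.0 CPM in siBcat, at 190.5, 178.4 and 208.2 CPM under GSK126, and at 131.9, 125.6 and 116.2 CPM in siCTL. Both treatments were above siCTL in every library, and siBcat above GSK126. The rise was 4.10-fold with siBcat (a log2 change of 2.04, SE 0.07, adjusted p = 1.4e-09) and 1.55-fold with GSK126 (0.63, SE 0.07, adjusted p = 2.76e-05), and the direct difference was 2.65-fold (1.41, SE 0.07, adjusted p = 9.32e-09). In siBcat against siCTL, 0.91% of the genes tested changed by more.

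Wisp1 (chromosome 15, 66891393 to 66923199, plus strand), a CCN protein of bone-forming cells, was at 250.9, 247.2 and 263.9 CPM in siBcat, at 185.6, 183.9 and 140.7 CPM under GSK126, and at 188.5, 177.1 and 182.2 CPM in siCTL. The siBcat libraries lay above all others, and the GSK126 libraries overlapped siCTL. Wisp1 rose by 0.48 with siBcat (SE 0.09, adjusted p = 0.00117) and was higher in siBcat than in GSK126 by 0.58 (SE 0.09, adjusted p = 0.000219). The GSK126 group differed from the controls by -0.10 (SE 0.09, adjusted p = 0.418), and by 0.01 without GSK126 replicate 3, its lowest library (adjusted p = 0.826; alternatives 0.202 to 0.826). The remaining CCN gene, Wisp3, held 0 to 4 counts in a library and did not pass the filter.

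**Figure D2:**
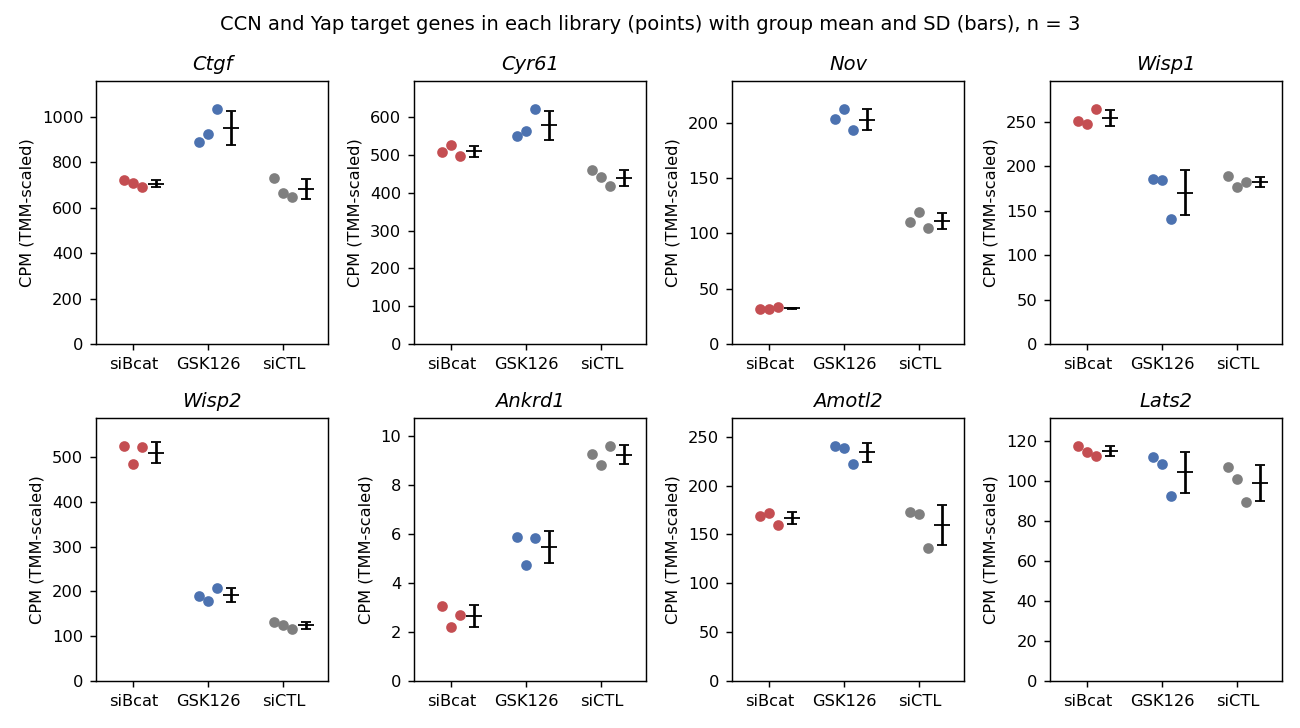
CPM of the 8 genes in each of the 9 libraries (points), with the group mean and SD beside them (bars, n = 3), each panel on its own axis from 0. Wisp2 reaches 484.3 to 525.4 CPM in siBcat and Nov 31.7 to 33.2 CPM, while Ctgf, Cyr61, Nov and Amotl2 stand highest in GSK126.

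Ankrd1 (chromosome 19, 36111965 to 36119844, minus strand), a stretch-responsive transcriptional cofactor of the nucleus and sarcomere and a common Yap reporter, was the least abundant member. It was at 3.07, 2.19 and 2.67 CPM in siBcat, at 5.87, 4.73 and 5.82 CPM under GSK126, and at 9.28, 8.82 and 9.59 CPM in siCTL. The groups did not overlap, in the order siBcat, GSK126, siCTL from low to high. Ankrd1 fell 3.51-fold with siBcat (a log2 change of -1.81, SE 0.14, adjusted p = 6.78e-07) and 1.68-fold with GSK126 (-0.75, SE 0.13, adjusted p = 0.000868), and siBcat stood 2.09-fold below GSK126 (-1.06, SE 0.14, adjusted p = 5.33e-05). It rests on 108 to 126 counts per library in siBcat, 206 to 332 in GSK126 and 400 to 452 in siCTL. All of these are even, for a reason that was not tested, so the number of independent reads may be smaller.

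Amotl2 (chromosome 9, 102717804 to 102733417, plus strand) was at 168.4, 171.5 and 159.8 CPM in siBcat, at 240.6, 238.6 and 222.5 CPM under GSK126, and at 173.1, 170.7 and 136.4 CPM in siCTL. The GSK126 libraries were above all others, and siBcat lay within siCTL, whose replicate 3 was the lowest of the 9. Amotl2 rose by 0.55 with GSK126 (SE 0.08, adjusted p = 0.000338) and was lower in siBcat than in GSK126 by -0.49 (SE 0.08, adjusted p = 0.000343). With siBcat it differed by 0.06 (SE 0.08, adjusted p = 0.611), and without siCTL replicate 3 by -0.05 (adjusted p = 0.603; alternatives 0.317 to 0.827).

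Lats2 (chromosome 14, 57689662 to 57746123, minus strand) was at 117.6, 114.8 and 112.8 CPM in siBcat, at 111.9, 108.7 and 92.7 CPM under GSK126, and at 107.1, 100.9 and 89.5 CPM in siCTL. The siBcat libraries were the highest by a small margin, and GSK126 overlapped siCTL. It was higher by 0.21 with siBcat, at the threshold (SE 0.08, adjusted p = 0.0479), and this was past the threshold in 12 of the 21 alternatives (0.000393 to 0.187). The call ended without siBcat replicate 1 (0.158), 2 (0.114) or 3 (0.0932), siCTL replicate 2 (0.117) or 3 (0.187), or GSK126 replicate 2 (0.0515), and with library size only (0.059), no filter (0.0581) or robust estimation off (0.0531). With GSK126 it differed by 0.07 (SE 0.08, adjusted p = 0.515), and between the treatments by 0.14 (SE 0.08, adjusted p = 0.169), past the threshold with the trend on coding length removed (0.0168; alternatives 0.0168 to 0.431). In GENCODE M21 another gene on the same strand, Gm49361, shares 2955 exon bases with Lats2, so its counts may hold reads of both.

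Of the 8 members, 4 rose with siBcat (Wisp2, Wisp1, Cyr61 and Lats2) and 2 fell (Nov and Ankrd1), against a background of 17.7% of all genes tested that were higher and 17.5% that were lower, 35.2% together. Of all those calls 50.3% were higher, and 41.7% with library size only. With GSK126, 5 rose (Nov, Wisp2, Ctgf, Amotl2 and Cyr61) and 1 fell (Ankrd1), against 14.3% higher and 10.7% lower, 25.0% together. The share of all calls that were higher with GSK126 was 57.1%, and 44.6% with the length trend removed. Compared directly, 2 members were higher in siBcat than in GSK126 (Wisp2 and Wisp1) and 5 lower (Nov, Ctgf, Amotl2, Ankrd1 and Cyr61), against 19.3% and 21.9%, or 41.2% together; the higher share of all those calls, 46.8%, was 33.4% with library size only and 56.4% with the length trend removed. Both treatments were set against the same siCTL libraries, so the first 2 comparisons are not independent. The libraries of the groups did not overlap for 6 members in siBcat against siCTL (55.2% of all genes), 6 in GSK126 against siCTL (42.1%) and 8 in siBcat against GSK126 (52.5%). The median log2 fold change of the members was 0.14 with siBcat, 0.44 with GSK126 and -0.30 between the treatments, beside 0.002, 0.006 and -0.012 over all genes tested. Without siBcat replicate 2 or siCTL replicate 2, 4 members were called with siBcat in place of 6. Over all genes, 3613 to 6320 were called with siBcat when 1 library was left out, in place of 4666.

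**Figure D3:**
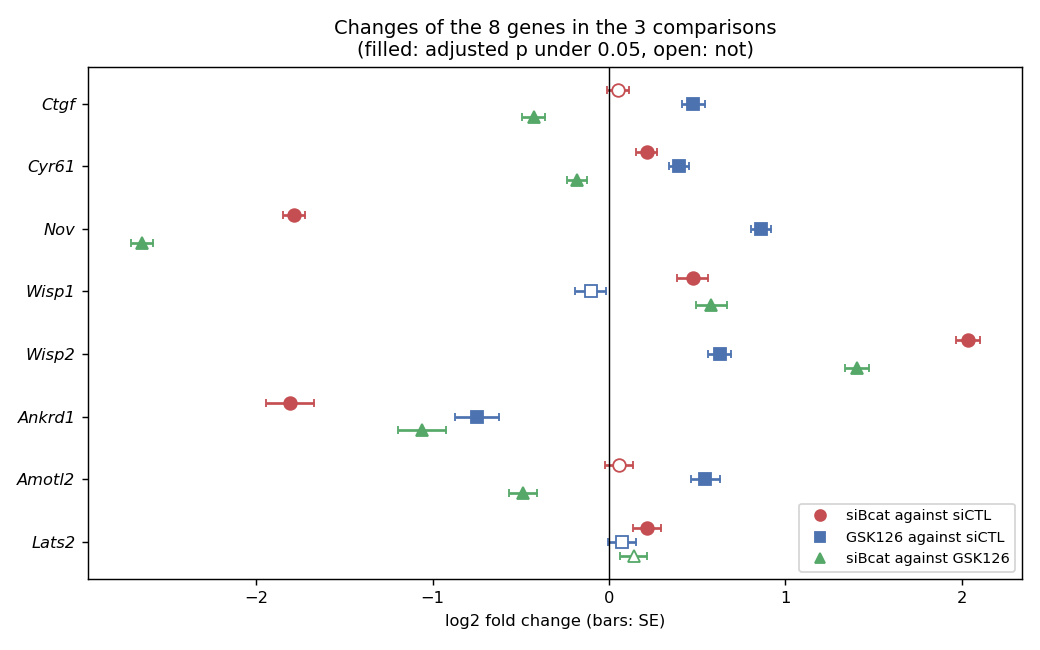
Log2 fold changes of the 8 genes with their SE, in siBcat against siCTL (circles), GSK126 against siCTL (squares) and siBcat against GSK126 (triangles), filled where the adjusted p is under 0.05. Nov lies at -1.79 with siBcat and 0.86 with GSK126, and Ankrd1 is below 0 in all 3.

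Levels of different genes are compared here per length, as the authors' RPKM (reads scaled by coding length and library total). In siCTL the order from high to low was Ctgf at 256.2 ± 13.7, Cyr61 at 195.8 ± 6.80, Wisp2 at 63.4 ± 3.25, Nov at 42.6 ± 2.54, Amotl2 at 34.5 ± 4.03, Wisp1 at 32.9 ± 0.970, Lats2 at 16.1 ± 1.25 and Ankrd1 at 4.72 ± 0.242 RPKM (SD, n = 3), and among neighbours only Amotl2 and Wisp1 overlapped. Ctgf was above 98.6% and Ankrd1 above 39.4% of the genes tested in siCTL. In siBcat Wisp2 came level with Ctgf, at 253.5 ± 11.1 and 259.2 ± 4.78 RPKM (SD, n = 3), ranges that overlapped, and Nov moved to the place above Ankrd1, at 12.04 ± 0.324 RPKM. In GSK126 the order of the means was that of siCTL throughout, with Wisp1 at 31.3 ± 4.14 RPKM and no neighbours overlapping.

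The summed RPKM of the 5 CCN members was 784.3 to 798.3 in siBcat, 799.7 to 911.9 in GSK126 and 570.1 to 616.4 in siCTL, so both treatments lay above the controls in every library. Wisp2 was 30.7 to 33.0% of that sum in siBcat, against 11.3 to 12.3% in GSK126 and 10.5 to 10.9% in siCTL. Ctgf made up 32.2 to 33.2% in siBcat, 42.5 to 44.7% in GSK126 and 42.6 to 44.1% in siCTL. Nov made up 1.49 to 1.57% in siBcat, 8.48 to 10.1% in GSK126 and 6.78 to 7.76% in siCTL. The RPKM of Nov per RPKM of Wisp2 was 0.0475 ± 0.00168 in siBcat, 0.797 ± 0.0980 in GSK126 and 0.673 ± 0.0426 in siCTL (SD, n = 3). These shares were not tested, since a share falls where another member rises.

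**Figure D4:**
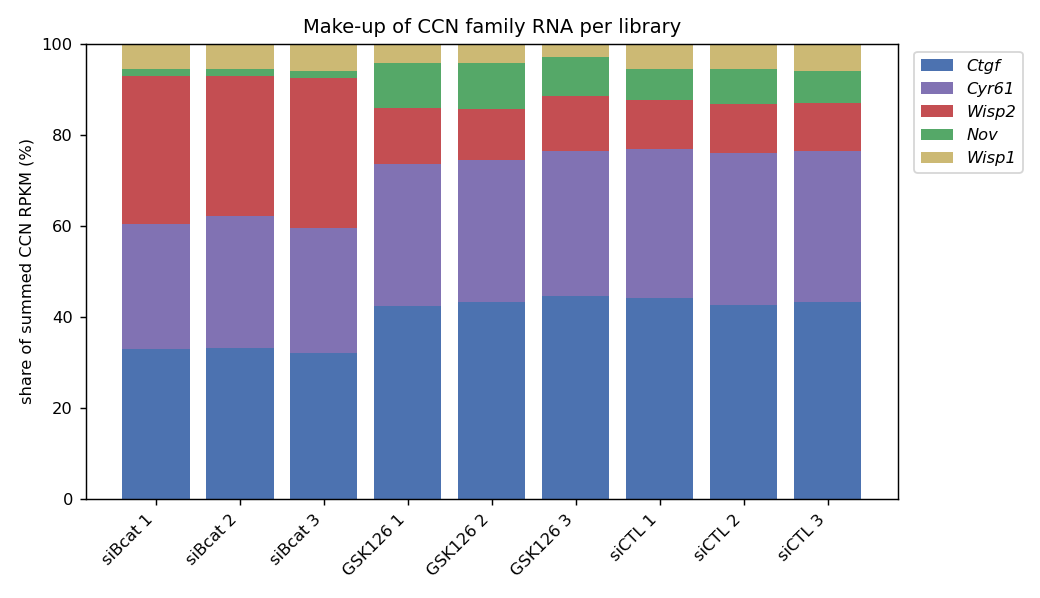
Share of each CCN gene (percent) in the summed RPKM of the 5 CCN members, per library, in siBcat, GSK126 and siCTL. The Wisp2 segment takes 30.7 to 33.0% in siBcat and 10.5 to 12.3% in the other 6 libraries.

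Upstream, the coactivator gene Yap1 was at 212.0 ± 6.02 CPM in siBcat, 185.0 ± 4.25 CPM in GSK126 and 210.2 ± 5.42 CPM in siCTL (SD, n = 3). It fell with GSK126 by 0.18 on the log2 scale (SE 0.05, adjusted p = 0.0137) and had no call with siBcat (0.01, SE 0.05, adjusted p = 0.869). Compared directly, Yap1 was higher in siBcat than in GSK126 by 0.20 (SE 0.05, adjusted p = 0.00528). Wwtr1, which encodes Taz, was at 169.1 ± 1.99 CPM in siBcat, 163.0 ± 12.9 CPM in GSK126 and 194.0 ± 2.595 CPM in siCTL. It fell by 0.25 with GSK126 (SE 0.06, adjusted p = 0.00727) and by 0.20 with siBcat (SE 0.06, adjusted p = 0.0179), a call that ended on leaving out siBcat replicate 2 (0.0687) or 3 (0.053) or siCTL replicate 1 (0.0602), over alternatives from 2.31e-05 to 0.0687. Of the Tead genes, Tead4 was called against siCTL in the fit of all libraries, with GSK126, at 4.51 ± 1.08 CPM against 2.46 ± 0.301 CPM in siCTL (0.87, SE 0.18, adjusted p = 0.00343). Tead1, the most abundant of them, averaged 177.3 CPM in siBcat, 148.0 CPM in GSK126 and 173.7 CPM in siCTL, with no call in the fit of all libraries; between the treatments it differed by 0.26 (SE 0.11, adjusted p = 0.0869), past the threshold in 4 of 21 alternatives, which are DESeq2 (0.0418), the length trend removed (0.000526) and GSK126 replicate 2 (0.0282) or 3 (0.0345, at a log2 fold change of 0.11) left out, over alternatives from 0.000526 to 0.196. Tead4 with siBcat stood at 0.48 (SE 0.18, adjusted p = 0.0568), past the threshold in 7 of 21 alternatives (0.00869 to 0.185), which are upper quartile scaling (0.0443), DESeq2 (0.0428), the replicate block (0.0286), the length trend removed (0.0263), only the 2 groups compared (0.0157) and GSK126 replicate 1 (0.0476) or 3 (0.00869) left out. Tead2 with siBcat stood at -0.18 (SE 0.07, adjusted p = 0.0658), past the threshold in 5 of 21 alternatives (0.00933 to 0.241), which are library size only (0.039), the length trend removed (0.0168), only the 2 groups compared (0.00933) and GSK126 replicate 3 (0.00971) or siCTL replicate 3 (0.03) left out. Tead2 and Tead3 averaged 40.9 and 36.1 CPM in siBcat, 49.3 and 36.7 CPM in GSK126 and 46.3 and 34.2 CPM in siCTL. Tead2 was lower in siBcat than in GSK126 by -0.27 (SE 0.07, adjusted p = 0.0078).

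Of 26 Hippo pathway genes tested, a list that includes Lats2 and Amotl2, 1 rose and 10 fell with siBcat, beside the 17.7% and 17.5% of all genes. Those that fell included the upstream scaffold gene Frmd6 (-0.53, SE 0.06), the kinase gene Stk4 (-0.34, SE 0.06), Nf2, which encodes the membrane scaffold merlin (-0.25, SE 0.05), and the protocadherin gene Dchs1, at 0.692 CPM in siBcat and 1.70 CPM in siCTL (-1.29, SE 0.31). The count of calls, 11, was 7, 6 and 6 without siBcat replicate 1, 2 or 3 and 7 without siCTL replicate 2, all of them lower. It was 19 without GSK126 replicate 3 and also with only the 2 groups compared, each 6 higher and 13 lower. With the length trend removed, 6 were higher and 10 lower. Over all genes, 4666 were called in the fit of all libraries, and 6074 with only the 2 groups compared. They numbered 5566 with the length trend removed and 3613 to 6320 without 1 library. With GSK126, 2 rose (Amotl2 and Tead4) and 8 fell, Frmd6 (-0.35, SE 0.06) and the kinase gene Stk3 (-0.30, SE 0.06) among the clearest, beside 14.3% and 10.7%. These 10 calls ranged from 8 to 14 without 1 library, beside 2337 to 3844 over all genes (3311 in the fit of all libraries). In GSK126 replicate 3 Amotl1 was at 124.6 CPM, against 155.4 and 161.5 CPM in replicates 1 and 2. Frmd6 was at 82.6 CPM there against 95.5 and 94.9 CPM, while Tead2 was higher, at 53.3 CPM against 48.15 and 46.4 CPM. The part of that library in the falls was not tested. The median over the list was -0.10 with siBcat and -0.12 with GSK126. Between the treatments 4 were higher and 6 lower in siBcat, beside 19.3% and 21.9%, with Nf2 by -0.38 (SE 0.05), Stk4 by -0.33 (SE 0.06) and the angiomotin family gene Amotl1 higher by 0.36 (SE 0.08).

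Of 16 further genes of the Yap signature that were tested, 1 rose and 2 fell with siBcat, so that 13 had no call, beside 17.7% of all genes higher and 17.5% lower. The riser was Rbms3, an RNA-binding protein gene, at 31.8 CPM in siBcat and 19.1 CPM in siCTL (0.74, SE 0.11, adjusted p = 0.000165). The stress-response gene Gadd45a fell (-0.53, SE 0.08, adjusted p = 0.000261), as did the forkhead gene Foxf2 (-0.24, SE 0.08, adjusted p = 0.0346). The Foxf2 call ended on leaving out siBcat replicate 1 (0.0885) or 3 (0.109) or siCTL replicate 1 (0.111) or 2 (0.102), and with the replicate block (0.0545), over alternatives from 0.00865 to 0.111. The count of calls, 3, was 5 without siCTL replicate 1 (2 higher and 3 lower). It was 8 without GSK126 replicate 3 or with only the 2 groups compared (3 higher and 5 lower in both). With the length trend removed it was 6 (3 higher and 3 lower). Over all genes, 4666 were called in the fit of all libraries, and 6074 with only the 2 groups compared. They numbered 5566 with the length trend removed and 3613 to 6320 without 1 library. With GSK126, 4 rose and 4 fell, beside 14.3% and 10.7%. The tissue factor gene F3 rose by 0.41 (SE 0.06), Fjx1 by 0.95 (SE 0.15) and the matrix gene Ccdc80 by 0.21 (SE 0.05), and the receptor kinase gene Axl fell (-0.23, SE 0.06). The 8 calls were 5 without siCTL replicate 2 (4 higher and 1 lower) or 3 (3 higher and 2 lower). Over all genes, calls with GSK126 ranged from 2337 to 3844 without 1 library, beside 3311 in the fit of all libraries. The list median was -0.07 with siBcat and -0.15 with GSK126. Between the treatments 4 were higher and 7 lower in siBcat, beside 19.3% and 21.9%, with Rbms3 at 0.90 (SE 0.11), Axl at 0.34 (SE 0.06), F3 at -0.35 (SE 0.06) and Ccdc80 at -0.24 (SE 0.05).

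**Figure D5:**
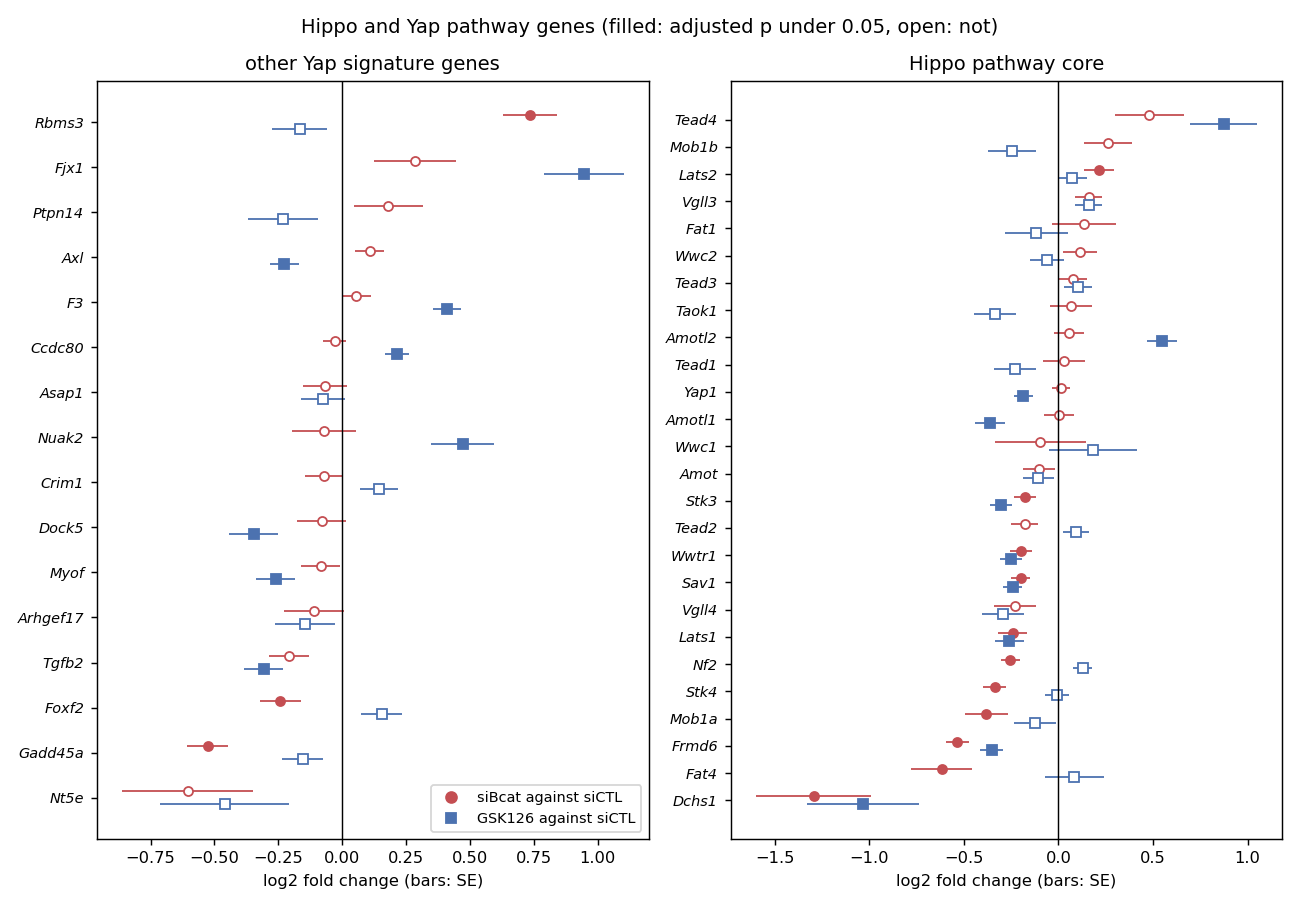
Log2 fold changes with SE of further Yap signature genes (left) and Hippo pathway genes (right), in siBcat (circles) and GSK126 (squares) against siCTL, filled where the adjusted p is under 0.05. In the Yap signature 1 gene rose and 2 fell with siBcat, and 4 rose and 4 fell with GSK126.

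Among 10 tested genes for integrins and Lrp receptors known to bind CCN proteins, 2 rose and 3 fell with siBcat, beside 17.7% and 17.5% of all genes, and 1 rose and 4 fell with GSK126, beside 14.3% and 10.7%. The beta 3 integrin gene Itgb3 was at 156.4, 152.8 and 160.0 CPM across siBcat replicates, at 62.7, 61.4 and 59.3 CPM across GSK126 replicates and at 87.1, 89.0 and 85.0 CPM across siCTL replicates. It rose with siBcat (0.85, SE 0.05, adjusted p = 6.51e-08), fell with GSK126 (-0.51, SE 0.05, adjusted p = 1.12e-05) and was 2.56-fold higher in siBcat than in GSK126. The fibronectin receptor subunit gene Itga5 moved likewise, at 0.41 (SE 0.05) with siBcat and -0.185 (SE 0.05) with GSK126. The Wnt coreceptor gene Lrp5 went the other way, at -0.39 (SE 0.07) with siBcat and 0.33 (SE 0.07) with GSK126, and the laminin receptor subunit gene Itga6 fell with siBcat (-0.85, SE 0.14). Between the treatments 4 of the 10 were higher and 3 lower in siBcat, beside 19.3% and 21.9%. The list median was -0.06 with siBcat, -0.20 with GSK126 and 0.11 between them.

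Cyr61 and Ctgf are also immediate early genes, induced within minutes of serum or stretch through Srf and related factors. Of 17 other immediate early genes tested, 7 rose and 0 fell with siBcat, beside 17.7% and 17.5% of all genes, and 8 rose and 1 fell with GSK126, beside 14.3% and 10.7%. At an unadjusted p under 0.05 in edgeR, 10 were higher and 1 lower with siBcat, and DESeq2 called 7 higher and 1 lower. With only the 2 groups compared, and without siCTL replicate 3, 6 were higher and 2 lower with siBcat, and without GSK126 replicate 3, 7 were higher and 2 lower. Egr2, a zinc finger factor, rose by 0.72 with siBcat (SE 0.06) and 0.53 with GSK126 (SE 0.06), and Klf4 by 0.92 with siBcat (SE 0.09) and 0.95 with GSK126 (SE 0.09). Dusp1, a phosphatase of MAP kinases, rose with siBcat (0.46, SE 0.06) and fell with GSK126 (-0.33, SE 0.06). The list median was 0.46 with siBcat and 0.40 with GSK126. Some of these genes were lowest in siCTL replicate 3, as Junb, at 27.0 CPM there against 65.9 and 60.25 CPM in siCTL replicates 1 and 2. Jun was at 26.2 CPM there against 43.5 and 38.3 CPM. The difference was smaller for Klf4 (14.3 against 19.1 and 16.2 CPM) and Egr2 (31.0 against 32.9 and 32.3 CPM). The part of that library in the medians was not tested. With 1 library left out, 8 to 10 genes were called with GSK126, beside 2337 to 3844 over all genes. Between the treatments 4 were higher and 3 lower in siBcat, beside 19.3% and 21.9%, with Egr1 at -0.35 (SE 0.05) and Klf2 at -1.05 (SE 0.16). The 7 calls were 11 without siCTL replicate 3. Over all genes, calls between the treatments ranged from 4417 to 6318 without 1 library, beside 5450 in the fit of all libraries.

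Beside Wisp1 and Wisp2, 14 other Wnt target genes were listed, of which 11 passed the filter and were tested. With siBcat 1 rose, Myc (0.68, SE 0.08), and 5 fell, beside 17.7% and 17.5% of all genes. Among those that fell were the repressor of Wnt receptors Apcdd1 (-1.30, SE 0.23), Tcf7 (-0.94, SE 0.18) and Lef1 (-0.41, SE 0.08). Apcdd1 averaged 0.749 CPM in siBcat and 1.87 CPM in siCTL, and Tcf7 1.31 and 2.51 CPM, so both rest on low levels. Lef1 averaged 23.7 CPM in siBcat and 31.4 CPM in siCTL. Rnf43 and Notum also fell, at 0.0135 and 0.451 CPM in siBcat against 0.191 and 0.922 CPM in siCTL, and the Notum libraries overlapped. Axin2, Sp5 and Dkk1 did not pass the filter, and Axin2 was at 0 to 0.17 CPM over the 9 libraries. With GSK126 4 rose and 0 fell, beside 14.3% and 10.7%, with the feedback inhibitor genes Nkd1 at 1.73 (SE 0.12) and Nkd2 at 0.97 (SE 0.09). Nkd1 averaged 6.60 CPM in GSK126 and 1.99 CPM in siCTL, and Nkd2 16.9 and 8.66 CPM. At an unadjusted p under 0.05 in edgeR, 5 of the 11 were higher and 0 lower with GSK126, and DESeq2 called 4 higher and 0 lower. The list median was -0.23 with siBcat and 0.32 with GSK126, while Wisp2 stood at 2.04 with siBcat and 0.63 with GSK126, and Wisp1 at 0.48 with siBcat and -0.10 with GSK126. Between the treatments 1 of the 11 was higher in siBcat, Myc, and 8 were lower, beside 19.3% and 21.9%.

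For the 3 members with a log2 fold change of at least 1 against siCTL, the genes of most similar profile were sought over the 9 libraries, by the root mean square difference of centred log2 CPM, among the 10898 tested genes averaging 2 CPM or more. For Nov these were Fbln7, a matrix protein gene (0.131), Sema3f, a guidance ligand gene (0.180), and Gpr81, a lactate receptor gene (0.197); Fbln7 had log2 fold changes of -1.75 with siBcat and 1.02 with GSK126. For Wisp2 they were Svop (0.119), Apol6 (0.220) and Olfm1 (0.221), with Svop at 2.07 with siBcat and 0.83 with GSK126. For Ankrd1 they were Ggt5 (0.162), Cldn15 (0.185) and Zcchc5 (0.187), with Ggt5 at -1.64 with siBcat and -0.64 with GSK126. The libraries are common to all these genes, and the measure is a description.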

How the data were processed

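The submitters' processing notes name mm10, HTSeq, TopHat2 2.0.6 and bcl2fastq; gene models and strand setting: not given in the sources used here. Each gene and library has a raw count in the deposited table, per the file headers. The authors' RPKM, a count scaled by coding length and by a library total, is used here only to compare genes with each other. Another 6 columns of per-sample values were not used.

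Groups followed the sample titles. All 9 libraries entered 1 fit in R 4.3.3 with edgeR 4.0.16: filterByExpr (minimum count 10, minimum total 15), TMM scaling, robust quasi-likelihood F-tests, and Benjamini-Hochberg adjustment over the 13240 genes tested, with a threshold of 0.05. The procedure was run on simulated counts for siBcat against siCTL. These had the same spread for all genes and no length pattern, so they do not show how the fit behaves on these libraries. CPM are TMM-scaled. Alternatives were other scalings, filters, DESeq2 1.42.0, limma-voom (limma 3.58.1), a replicate block, halved counts, robust estimation off, fitting only 2 groups, a removed length trend (loess, span 0.5) and each library left out in turn. Members and lists were chosen with earlier results of these data known.

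Genes named were all members, Ctnnb1, Ezh2, Wisp3, Yap1, Wwtr1 and the Tead genes, up to 4 genes per list and comparison by smallest adjusted p, and the 3 genes most alike each member that changed by at least 1 (log2). Axl, Crim1 and Ptpn14 as promoter matches, Jun and Junb, Rnf43, Notum, Axin2, Sp5 and Dkk1, and the markers, were named after their values were seen. Promoters came from RefSeq, gene positions from the deposited table and overlaps from GENCODE M21. Python 3.11.15, pandas 2.3.3, numpy 2.4.6 and matplotlib 3.10.9 were used.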

Additional observations from a re-analysis of the deposited data

How the results depend on the processing

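Over 21 alternatives, the 504 recomputed values of the 8 members kept direction and side of the threshold in 487. In 14 a call of Cyr61 or Lats2 was lost, in 1 Lats2 gained one, and in 2 an uncalled value changed sign: Amotl2 with siBcat without siCTL replicate 3 (-0.0448; -0.0448 to 0.1163 over single libraries left out), and Wisp1 with GSK126 without GSK126 replicate 3 (0.0145; -0.1762 to 0.0145). Calls of Nov, Wisp2, Ankrd1, Ctgf, Amotl2 and Wisp1 kept direction and side in all 21. Leaving out 1 library, members called ranged from 4 to 6 with siBcat, 6 to 6 with GSK126 and 6 to 7 between the treatments, and genes called from 3613 to 6320, 2337 to 3844 and 4417 to 6318.

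Among uncalled values of other named genes that changed sign, Yap1 with siBcat was at -0.023 with library size only and from -0.0104 to 0.0331 without 1 library. Tead1 with siBcat was at -0.0062 with library size only and from -0.004 to 0.0705 without 1 library. Between the treatments, Wwtr1 was at -0.0144 with library size only and from -0.0094 to 0.0985 without 1 library, Tead3 at 0.0196 with the length trend removed and from -0.0516 to 0.0082 without 1 library, and Ezh2 at 0.0332 with the length trend removed and from -0.0649 to 0.0221 without 1 library. List calls moved by over 1.5 times in 2 other cases: Yap signature genes with siBcat numbered 6 with the length trend removed and 8 with only 2 groups compared, and Hippo genes with siBcat 19 with only 2 groups compared. Without 1 library, Yap signature calls ranged from 2 to 8 with siBcat and 5 to 10 with GSK126, Hippo calls with siBcat from 6 to 19, and immediate early calls between the treatments from 5 to 11. Over all genes with siBcat, 5566 were called with the length trend removed and 6074 with only the 2 groups compared, in place of 4666. The cause of these shifts was not tested.

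The labels give all groups replicate numbers 1 to 3 and do not say whether same-numbered libraries belong together. Deviations of same-numbered libraries correlated at -0.031 to 0.069, and those of differently numbered ones at -0.074 to 0.057. These values show no deviation shared by number, and they cannot tell whether the samples were handled in pairs. With the replicate block, 4514 genes and 6 members were called with siBcat, 3135 and 6 with GSK126, and 5267 and 7 between the treatments. Depth limits Ankrd1 most, at 108 counts as deposited in its lowest library.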
